A study of Mus musculus with 12 samples.

Results

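Hearts of Slit2-Tg mice and of C57BL/6J mice were compared without ischemia, so that the difference of genotype could be read before any injury. The 6 libraries were chosen by their sample titles, 3 from C57-non-IR hearts and 3 from Slit2-non-IR hearts, of 12 libraries in the series. The other 6 libraries, 3 C57-IR and 3 Slit2-IR, came from hearts of the same genotypes after ischemia and reperfusion, and they served as a separate set in which each difference could be looked up. All hearts were from male mice aged 3 to 5 months, were isolated and perfused on a Langendorff apparatus (retrograde perfusion through the aorta), and were processed as total RNA from whole tissue. Non-IR hearts were perfused for 80 min throughout, and IR hearts were perfused for 20 min, left without flow for 20 min and reperfused for 40 min.

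Slit2-Tg mice carry a full-length human SLIT2 cDNA behind the CMV promoter, a viral promoter that is active in many cell types and not restricted to the heart. The construct was injected into oocytes of C57 × CBA F1 females, and heterozygous offspring on a C57BL/6 background were used, so that a Slit2-Tg heart may differ from a C57BL/6J heart by the transgene, by its place of insertion and by remaining CBA segments, and these cannot be told apart here. The sources used here do not give the number of founder lines or say that the C57BL/6J mice were littermates. Nothing in the labels says that the libraries of a group came from separate animals, and p-values measure only the spread between these libraries.

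SLIT proteins are large secreted ligands first described as guidance cues for growing axons, and they act through ROBO receptors on the surface of the target cell. SLIT2 binds ROBO1 and ROBO2, with heparan sulfate proteoglycans such as glypican-1 as partners, and srGAP proteins carry the signal inside the cell. ROBO4 is the family member of endothelial cells. In the heart, SLIT and ROBO genes take part in the development of valves, chambers and vessels.

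Expression was read as FPKM, here fragments scaled by gene length and by a size factor of each library. In the deposited values these factors matched the median of ratios between libraries, over genes with reads in every library. This scaling allows levels to be compared between genes as well as between libraries. The mouse Slit2 gene itself was expressed at a low level, at 0.180, 0.222 and 0.184 FPKM in the C57-non-IR hearts and at 0.182, 0.184 and 0.169 FPKM in the Slit2-non-IR hearts. The groups overlapped, and the log2 fold change was −0.02 (SE 0.15). The transgene is a human cDNA with no entry of its own among the mouse genes, so the mouse Slit2 level does not check the genotype. By semi-quantitative PCR and Western blotting, the paper found more Slit2 mRNA and protein in hearts of Slit2-Tg mice. After reperfusion the mouse Slit2 level was 0.282, 0.235 and 0.213 FPKM in C57-IR hearts and 0.153, 0.813 and 0.0847 FPKM in Slit2-IR hearts, and 1 Slit2-IR library stood far above the other 2. Slit3, the most highly expressed ligand, was at 2.02, 3.34 and 3.04 FPKM in C57-non-IR hearts and at 3.44, 3.39 and 2.66 FPKM in Slit2-non-IR hearts. Slit1 had 4 to 7 reads per library and was not tested.

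Among the receptors, Robo4 was at 16.2, 10.9 and 9.31 FPKM in C57-non-IR hearts and at 7.55, 8.32 and 10.8 FPKM in Slit2-non-IR hearts. The Robo4 groups overlapped, and the log2 fold change of −0.39 (SE 0.24) did not pass the test. The paper, by contrast, lists Robo4 among the genes it called in this comparison before adjustment. Robo1 was far less abundant, at 0.306 to 0.404 FPKM in C57-non-IR hearts and 0.321 to 0.580 FPKM in Slit2-non-IR hearts, with a log2 fold change of 0.11 (SE 0.08). Robo2 was lower again, at 0.0499 to 0.134 FPKM over the 6 libraries, and Robo3 had at most 2 reads in any of them. The order of the receptors by level, Robo4 above Robo1 above Robo2, was the same in each of the 6 libraries, with no overlap between neighbours.

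Of the binding partners, Gpc1, which encodes glypican-1, was at 60.4, 71.3 and 69.1 FPKM in C57-non-IR hearts and at 98.1, 77.8 and 75.7 FPKM in Slit2-non-IR hearts. These groups did not overlap, but the log2 fold change of 0.32 (SE 0.17) did not pass the test. Srgap2, an intracellular effector of ROBO receptors, was lower without overlap, at 2.84, 2.64 and 2.48 FPKM against 2.38, 2.12 and 2.23 FPKM, and did not pass the test either. In all, 13 of the 15 genes of the SLIT and ROBO list were expressed enough to be tested. None of them reached an unadjusted p under 0.05 in limma here, whereas the paper called Robo4 and Gpc1 in this comparison. Their log2 fold changes had a median of 0.04, and those of all tested genes had one of −0.0027.

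Over all genes, 15240 of 52858 had enough reads to be tested. Each was tested with limma on log2(FPKM + 1), and p-values were adjusted by the Benjamini-Hochberg method over all tested genes. At an adjusted p under 0.05, 6 genes (0.0394%) differed by genotype, and all 6 rose in the Slit2-Tg hearts. Before adjustment, 486 genes (3.19%) had a p under 0.05, 216 (1.42%) higher and 270 (1.77%) lower in Slit2-non-IR hearts. Groups that did not overlap were found for 1402 genes (9.2%), of which 705 (4.63%) were higher and 697 (4.57%) lower. The lowest adjusted p among the genes that were lower was 0.152. Depth ranged from 16601154 to 23524410 reads on genes per library.

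**Figure D1:**
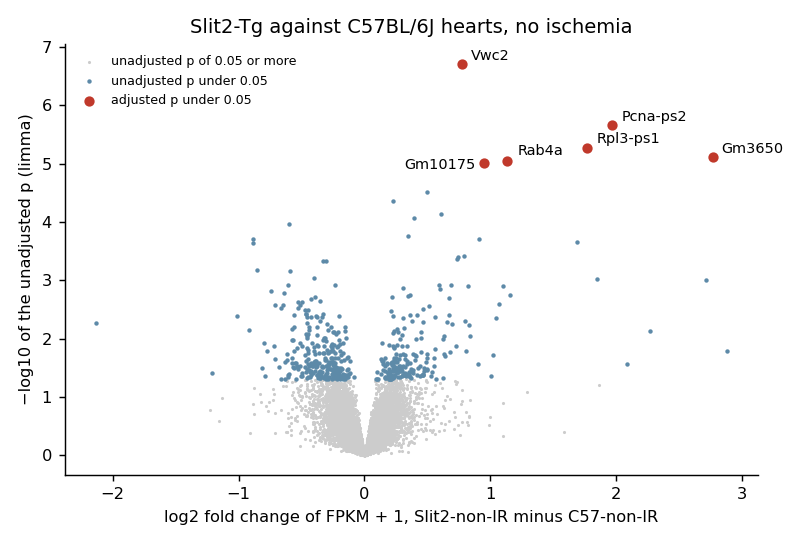
Each of the 15240 tested genes is 1 point, with its log2 fold change of FPKM + 1 (Slit2-non-IR minus C57-non-IR) on the horizontal axis and −log10 of the unadjusted limma p on the vertical axis. The 6 genes at an adjusted p under 0.05 are red and lie to the right of 0, and the other genes at an unadjusted p under 0.05 lie on both sides.

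The gene with the lowest p was Vwc2 on chromosome 11 (GRCm38, 11:11114223-11268931), which encodes brorin, a secreted antagonist of bone morphogenetic proteins. Vwc2 was at 0.0680, 0.161 and 0.163 FPKM in C57-non-IR hearts, and at 0.822, 1.11 and 0.876 FPKM in Slit2-non-IR hearts. In reads, these were 7, 21 and 17 against 103, 155 and 134. The groups were far apart, with a ratio of means of 7.18 and a log2 fold change of 0.77 (SE 0.07, adjusted p = 0.00293, limma). In the separate hearts after reperfusion Vwc2 was at 0.142, 0.109 and 0.0589 FPKM in C57-IR and at 0.530, 0.612 and 0.676 FPKM in Slit2-IR hearts, again without overlap (adjusted p = 0.0173, limma). Vwc2 remained called when any 1 library was left out.

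Rab4a (8:123805985-123835287) encodes a small GTPase that returns receptors from early endosomes to the cell surface. It was at 2.87, 2.40 and 2.73 FPKM in C57-non-IR hearts and at 7.52, 7.501 and 6.09 FPKM in Slit2-non-IR hearts, a ratio of 2.64. The log2 fold change was 1.13 (SE 0.15, adjusted p = 0.0251, limma). After reperfusion it was at 2.77, 2.22 and 1.82 FPKM in C57-IR hearts and at 6.504, 4.44 and 4.72 FPKM in Slit2-IR hearts. The lowest Slit2-Tg heart in either condition lay above the highest C57BL/6J heart.

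The 4 other genes that rose are copies of other genes. Rpl3-ps1 is a processed pseudogene (a copy of a spliced transcript set back into the genome) on chromosome X (X:13202571-13203780, plus strand), derived from Rpl3 on chromosome 15 (15:80077794-80091868, minus strand), which encodes a protein of the large ribosomal subunit. Pcna-ps2 on chromosome 19 (19:9283238-9284494, plus strand), which the deposited annotation types as protein coding, is a copy of Pcna on chromosome 2 (2:132249162-132253314, minus strand), the sliding clamp of DNA polymerase. Gm10175 (7:23946646-23947290) is a transcribed processed pseudogene that matches Atp5g2, a gene for subunit c of the mitochondrial ATP synthase. The fourth, Gm3650, is described after them.

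The sequences below show how little separates such a copy from its parent, and therefore which reads can be told apart. Each is 90 bases of the coding sequence, read 5′ to 3′ from the GRCm38 reference, and capitals mark the bases that differ between gene and copy. The Rpl3 stretch begins at coding base 1, and the Pcna stretch at coding base 88.
Rpl3: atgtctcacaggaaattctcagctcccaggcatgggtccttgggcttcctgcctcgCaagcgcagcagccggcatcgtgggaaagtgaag
Rpl3-ps1: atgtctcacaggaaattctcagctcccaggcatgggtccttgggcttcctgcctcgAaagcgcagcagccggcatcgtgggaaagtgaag
Pcna: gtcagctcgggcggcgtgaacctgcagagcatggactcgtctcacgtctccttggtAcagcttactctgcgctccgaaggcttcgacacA
Pcna-ps2: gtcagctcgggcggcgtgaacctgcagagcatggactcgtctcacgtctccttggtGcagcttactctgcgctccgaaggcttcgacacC
Over the 1209 coding bases of Rpl3 that could be compared without gaps, Rpl3-ps1 differed at 2, an identity of 99.8%. Over 781 such bases of Pcna, Pcna-ps2 differed at 6, an identity of 99.2%. Of all stretches of 50 bases in Rpl3-ps1, 91.4% also occurred in Rpl3, and the share was 63.8% for Pcna-ps2 in Pcna. All such stretches of Gm10175 (100%) occurred in Atp5g2. How the authors' counting assigned reads that fit both places is not given in the sources used here, so the values of these genes and of their parents are uncertain.

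Rpl3-ps1 was at 11.5, 10.8 and 8.45 FPKM in C57-non-IR hearts and at 30.7, 54.8 and 30.3 FPKM in Slit2-non-IR hearts, a ratio of 3.77. The log2 fold change was 1.77 (SE 0.22, adjusted p = 0.0251, limma). Pcna-ps2 was at 0.234, 0.369 and 0.0460 FPKM in C57-non-IR hearts and at 6.10, 2.62 and 3.11 FPKM in Slit2-non-IR hearts (log2 fold change 1.97, SE 0.22, adjusted p = 0.0164, limma). After reperfusion both were higher again in the Slit2-Tg hearts without overlap, Rpl3-ps1 at 49.2, 38.3 and 58.3 against 12.5, 12.7 and 12.3 FPKM, and Pcna-ps2 at 4.51, 4.92 and 6.53 against 0.228, 0.403 and 0.283 FPKM.

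Gm10175 was at 5.10, 5.10 and 5.64 FPKM in C57-non-IR hearts and at 12.9, 11.8 and 9.003 FPKM in Slit2-non-IR hearts, a ratio of 2.13 (log2 fold change 0.95, SE 0.12, adjusted p = 0.0251, limma). Gm3650 is annotated as an unprocessed pseudogene on chromosome 18 (18:43472816-43475169), and 67.2% of its stretches occurred in Eif3j1, a gene for a subunit of translation initiation factor 3, and 92.8% in Spg11, which encodes spatacsin. It had 2, 1 and 1 reads in the C57-non-IR libraries and 225, 71 and 80 reads in the Slit2-non-IR libraries. Its log2 fold change was 2.76 (SE 0.35, adjusted p = 0.0251, limma). In the other 6 hearts Gm3650 had 0, 1 and 0 reads in C57-IR and 73, 89 and 141 reads in Slit2-IR libraries. Transcripts counted at Gm3650 were thus close to 0 in every C57BL/6J heart and present in every Slit2-Tg heart.

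**Figure D2:**
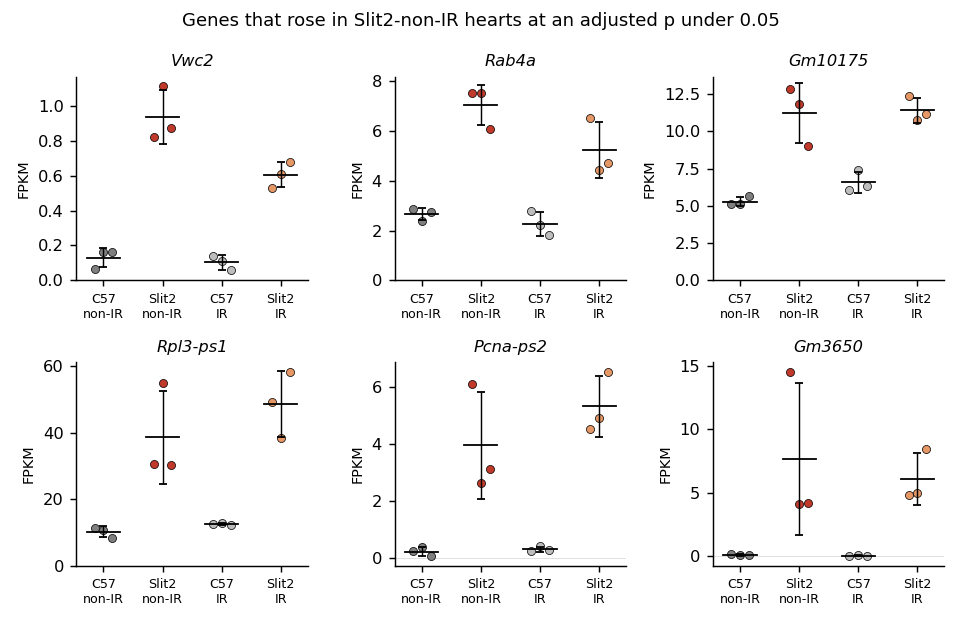
FPKM of the 6 genes that rose in Slit2-non-IR hearts at an adjusted p under 0.05, with 1 point per library in each of the 4 groups, the mean as a line and the SD as bars (n = 3 libraries). In each panel the 3 Slit2-non-IR points lie above the 3 C57-non-IR points, and the 3 Slit2-IR points above the 3 C57-IR points.

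All 6 genes that rose were also called at an unadjusted p under 0.05, in the same direction, in Slit2-IR against C57-IR hearts, and 4 of them (Vwc2, Rpl3-ps1, Pcna-ps2 and Gm3650) passed there at an adjusted p under 0.05. That comparison called 7 genes (0.0459%) at an adjusted and 482 (3.16%) at an unadjusted p under 0.05, and it shares no library with the comparison without ischemia, but both came from 1 fit and share each gene's estimate of spread. Leaving out any 1 of the 3 C57-non-IR libraries left 1 gene at an adjusted p under 0.05, leaving out C57-IR replicate 2 or 3 left 2, and leaving out Slit2-IR replicate 2 or 3 gave 10 or 14. With replicate 1 left out of all 4 groups, 0 genes passed (305 lower and 282 higher at an unadjusted p under 0.05), while Vwc2 and the others kept their direction.

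The parents of these copies were lower in Slit2-Tg hearts in several families. Rpl3 was at 48.2, 50.5 and 44.1 FPKM in C57-non-IR hearts and at 27.3, 22.6 and 37.96 FPKM in Slit2-non-IR hearts, without overlap (log2 fold change −0.71, SE 0.18; it did not pass after adjustment, adjusted p = 0.811, limma). To compare gene and copy on 1 scale, the reads of each were scaled by the same size factors of the libraries. Rpl3 had 3178, 3331 and 2913 scaled reads in C57-non-IR hearts and 1803, 1493 and 2505 in Slit2-non-IR hearts, while Rpl3-ps1 had 293, 277 and 216 against 786, 1403 and 775. The sum over Rpl3, Rpl3-ps1 and Rpl3-ps2 was 3472, 3609 and 3132 in C57-non-IR hearts and 2595, 2936 and 3297 in Slit2-non-IR hearts, so the sums overlapped where the single genes did not. Pcna with Pcna-ps2 summed to 829, 853 and 806 scaled reads against 679, 866 and 797, which also overlapped.

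The Eif3j family on chromosomes 2 and 18 had the same form. Eif3j1 was lower without overlap, at 9.12, 8.97 and 9.97 FPKM in C57-non-IR against 5.90, 7.97 and 7.75 FPKM in Slit2-non-IR hearts. Eif3j2, of whose 50-base stretches 90.8% occur in Eif3j1, was higher without overlap, at 0.543, 2.16 and 1.36 against 10.8, 4.63 and 4.799 FPKM. Eif3j2 lies next to Gm3650. The scaled reads of Eif3j1, Eif3j2 and Gm3650 together were 1155, 1216 and 1299 in C57-non-IR hearts and 1500, 1281 and 1265 in Slit2-non-IR hearts, with overlap.

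Other families differed in their sums. Hmgb1 encodes a chromatin protein that also acts as a danger signal outside the cell, and it was at 7.70, 7.15 and 7.96 FPKM in C57-non-IR hearts and 5.29, 5.53 and 5.69 FPKM in Slit2-non-IR hearts. Its processed pseudogene Gm15387, 96.5% of whose stretches occur in Hmgb1, was higher at 4.61, 4.35 and 4.15 against 3.35, 2.72 and 1.43 FPKM, and Hmgb1-ps1 was lower at 0.380, 0.137 and 0.436 against 0.926, 1.02 and 1.002 FPKM. Together they had 877, 811 and 879 scaled reads in C57-non-IR and 630, 649 and 667 in Slit2-non-IR hearts, so that the sum of this family was lower without overlap as well. The sum of Tuba1b, an alpha-tubulin gene, and 2 of its pseudogenes was 1943, 2175 and 2479 against 1488, 1477 and 1767, and that of Snu13, a component of the spliceosome, with Gm8741 was 1088, 1063 and 1072 against 870, 921 and 888, each without overlap. Capza1, for a subunit of the actin capping protein, was lower (432, 490 and 528 against 310, 362 and 207 scaled reads) and its copy Gm3608 higher (34, 165 and 125 against 216, 180 and 322), and their sums overlapped. Atp5g2 did not separate the groups, at 4211, 4794 and 4967 against 3597, 6086 and 5257 scaled reads. These sums are descriptions without a test.

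**Figure D3:**
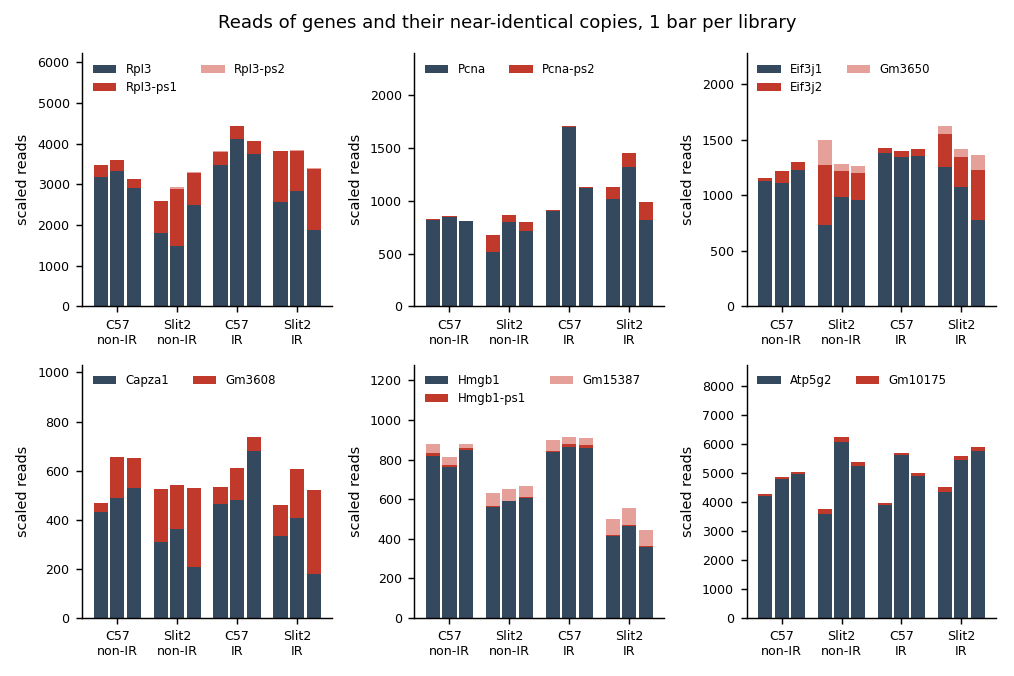
Reads scaled by the size factor of each library for 6 genes (dark) and their copies (red and light red). They are stacked in 1 bar per library and grouped as C57-non-IR, Slit2-non-IR, C57-IR and Slit2-IR. In the Slit2-Tg bars the copies Rpl3-ps1, Pcna-ps2, Eif3j2, Gm3650 and Gm3608 take a larger part, and for Rpl3 the 3 Slit2-non-IR bars hold 775 to 1403 scaled reads of Rpl3-ps1 where the 3 C57-non-IR bars hold 216 to 293.

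At an unadjusted p under 0.05, 92 genes (0.604% of those tested) were called in the same direction in both comparisons of genotype, 51 higher and 41 lower in Slit2-Tg hearts. They made up 18.9% of the genes called without ischemia and 19.1% of those called after reperfusion, while 6 genes were called in opposite directions. With each comparison fitted on its own 6 libraries, 79 genes were called in the same direction in both. Of the genes called without ischemia, 67.9% had the same sign after reperfusion, against 56.3% of all tested genes. Of the 92, 82 did not overlap without ischemia, 74 did not overlap after reperfusion and 64 did not overlap in either. Of all tested genes, 9.2% did not overlap without ischemia, and the share after reperfusion was not counted. The 92 were picked by their p in both comparisons, which favours groups that do not overlap, so these counts are no separate evidence. The difference between both comparisons was tested as an interaction and passed for 0 genes at an adjusted p under 0.05 in limma (284 at an unadjusted p under 0.05), which does not show that the comparisons were alike.

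Pseudogenes made up 4.64% of all tested genes, 10.9% of the 486 called without ischemia and 21.7% (20) of the 92. Among the 51 that were higher the share was 29.4%, and among the 41 that were lower it was 12.2%. Of the 92 genes, 29 had another tested gene in which at least 25% of their 50-base stretches occurred, 20 of them higher and 9 lower. Only 104 selected genes were searched for copies. The share among all tested genes is therefore not known, and the count does not show an excess. Besides those described above, AC154767.3, which shares 62.0% of its stretches with Tuba1b, was higher at 1.44, 0.905 and 1.32 FPKM in Slit2-non-IR against 0.219, 0.104 and 0.215 FPKM in C57-non-IR hearts. Gm15163, a copy of Suclg2, was higher at 9.59, 14.6 and 11.6 against 6.18, 5.94 and 7.06 FPKM, and Gm7846, a copy of Lsm5, was lower at 8.44, 3.32 and 4.76 against 10.3, 10.5 and 13.9 FPKM.

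Among the protein-coding genes that were higher in both comparisons, C1qtnf6, a secreted protein of the C1q and TNF family, was at 4.18, 3.97 and 3.10 FPKM in C57-non-IR hearts and at 7.24, 7.94 and 13.1 FPKM in Slit2-non-IR hearts, a ratio of 2.52. After reperfusion it was at 3.08, 2.55 and 3.28 against 8.67, 7.26 and 15.6 FPKM. Bex1, a small brain-expressed X-linked protein, was at 0.545, 0.469 and 0.292 FPKM against 3.37, 1.13 and 2.50 FPKM without ischemia. Neither passed after adjustment (log2 fold changes of 1.10, SE 0.26, and 1.16, SE 0.28), and in each the lowest Slit2-non-IR heart lay above the highest C57-non-IR heart.

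Stc2, which encodes the secreted glycoprotein stanniocalcin-2, was at 2.67, 3.92 and 3.997 FPKM in C57-non-IR hearts and at 5.77, 6.26 and 6.36 FPKM in Slit2-non-IR hearts. Olfml2b, an extracellular matrix protein with an olfactomedin domain, was at 2.30, 2.32 and 3.08 against 6.46, 4.96 and 3.28 FPKM. Gatm, the enzyme of the first step of creatine synthesis, was at 0.920, 1.14 and 1.39 against 3.34, 1.60 and 1.79 FPKM, and Gchfr, which regulates the first enzyme of tetrahydrobiopterin synthesis, was at 9.92, 6.46 and 5.02 against 18.5, 10.8 and 10.5 FPKM. These 4 genes did not overlap between the groups.

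Some of the higher genes were close to absent from C57BL/6J hearts. Fer1l6, a member of the ferlin family of membrane proteins, had 10, 9 and 17 reads in C57-non-IR and 67, 135 and 97 reads in Slit2-non-IR libraries. Akap2, an anchor protein for protein kinase A, had 2, 3 and 1 against 33, 38 and 32 reads, and its adjusted p was 0.0839 (limma), but 83.1% of its stretches also occur in the overlapping gene Pakap, so its reads are uncertain. Gm14085, a gene that shares 30.3% of its stretches with the nucleoside transporter gene Slc28a2, had 0, 0 and 2 against 89, 79 and 65 reads. Itpka, an inositol trisphosphate kinase, had 4, 3 and 4 against 17, 20 and 14 reads. At these depths the levels in C57BL/6J hearts are poorly determined.

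Among the protein-coding genes that were lower in both comparisons were both mouse genes for CD59, the inhibitor of the complement membrane attack complex. Cd59a was at 42.5, 46.3 and 49.1 FPKM in C57-non-IR hearts and at 27.3, 34.1 and 31.6 FPKM in Slit2-non-IR hearts (log2 fold change −0.56, SE 0.15). Cd59b, its neighbour on chromosome 2, was at 1.58, 1.89 and 1.91 against 0.371, 0.233 and 1.03 FPKM (log2 fold change −0.89, SE 0.17). Both sets of values lay apart without ischemia, and neither passed after adjustment.

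Slc7a1, a transporter of cationic amino acids, was at 4.69, 4.17 and 3.74 FPKM in C57-non-IR and 2.57, 2.61 and 2.15 FPKM in Slit2-non-IR hearts, and after reperfusion at 5.87, 5.26 and 3.91 against 1.25, 1.15 and 1.32 FPKM. Its log2 fold change was −0.59 (SE 0.13) without ischemia and −1.41 after reperfusion, where it passed at an adjusted p under 0.05, as did Hmgb1 with −0.89. Prps2, for phosphoribosyl pyrophosphate synthetase 2, was at 2.99, 3.33 and 3.63 against 1.44, 1.09 and 1.48 FPKM, without overlap. Apobec3, a cytidine deaminase that restricts retroviruses, was at 1.98, 1.90 and 1.17 against 0.745, 0.691 and 1.13 FPKM. The mitochondrial import receptor gene Tomm22 was at 47.8, 55.0 and 52.3 against 40.8, 37.0 and 41.8 FPKM, and Ndufaf1, for an assembly factor of complex I, was at 30.0, 29.5 and 28.2 against 22.1, 21.4 and 19.6 FPKM.

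**Figure D4:**
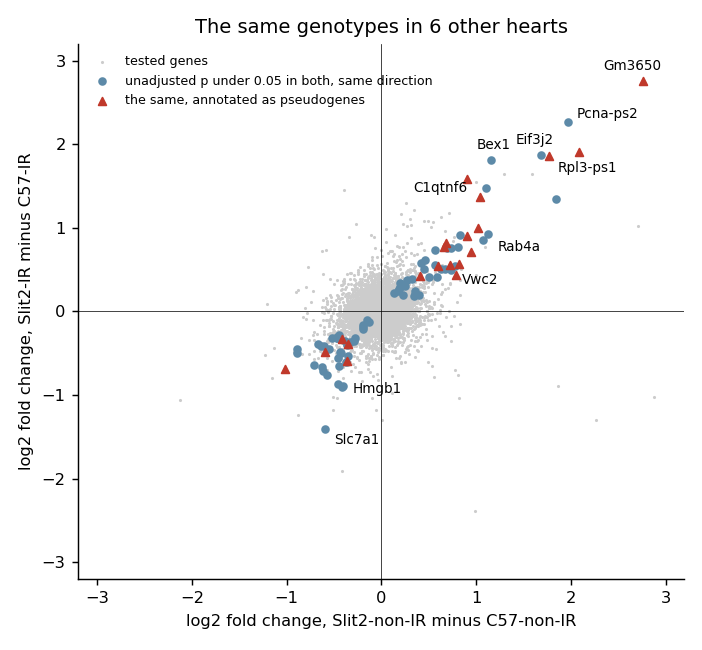
Log2 fold change of each tested gene without ischemia (horizontal, Slit2-non-IR minus C57-non-IR) against its log2 fold change after reperfusion (vertical, Slit2-IR minus C57-IR). The 92 genes called at an unadjusted p under 0.05 in both with the same direction are coloured, with triangles for the 20 annotated as pseudogenes, and the 51 that were higher reach log2 fold changes over 2 in Gm3650.

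The 92 genes were unevenly placed in the genome. Chromosome 2 held 20 of them, or 21.7%, against 7.76% of all tested genes, and chromosome 15 held 10, or 10.9%, against 3.72%. Chromosome 11 held 9, or 9.78%, close to its 8.17% of all tested genes, and chromosome X held 8, or 8.70%, against 3.27%. Chromosome 9, with 840 tested genes (5.51%), held 0. Runs of at least 4 of these genes with gaps of at most 5000000 bases were found at 3 places. The longest list came from chromosome 2 between 118745758 and 122611303 (GRCm38), where 11 of 78 tested genes (14.1%) were called in both comparisons, among them Inafm2, Ccdc32, Gchfr, Ndufaf1, Itpka, Capn3, Mfap1b, Casc4, Eif3j1, Gm14085 and Gatm. Of these, 5 were higher and 6 lower.

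On chromosome 15 between 74093686 and 81360765, 9 of 140 tested genes (6.43%) were called in both, including Gm15387, C1qtnf6, Elfn2, Pla2g6, Tomm22, Apobec3, Rpl3 and Slc25a17, 4 higher and 5 lower. On chromosome 11 between 26386135 and 31370074 there were 4 of 28 (14.3%), Fancl and Stc2 higher, Gm12097 and Erlec1 lower. In each stretch, then, neighbouring genes differed in both directions. Ccdc32, for example, was at 6.18, 6.51 and 6.18 against 4.35, 4.74 and 5.07 FPKM, while Gchfr near it was higher. Runs were defined from the calls themselves, so the counts are descriptions. In a list of 11 genes known to differ between inbred strains, 0 passed after adjustment in limma. Apobec3 alone (9.09%, against 3.19% of all tested genes) had an unadjusted p under 0.05. Log2 fold changes in the list ran from −0.53 to 0.77. After reperfusion 1 was called higher and 2 lower before adjustment, where 3.16% of all tested genes were called. The paper called Apobec3, Wdfy1 and Ifi202b of this list in the comparison without ischemia.

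The 12 largest rises and 12 largest falls were ranked among the 378 genes that were called at an unadjusted p under 0.05 and did not overlap. Of the 12 with the largest positive log2 fold changes, 9 were called again after reperfusion, and 3 were not. Gm10736, Gm10076 and Gm8741 were those 3, and all are short genes that share most of their stretches with Rpl41 or Snu13. Gm10076 was at 230, 112 and 29.1 FPKM in Slit2-non-IR against 17.9, 13.6 and 24.4 FPKM in C57-non-IR hearts, but after reperfusion at 19.6, 17.4 and 23.0 FPKM in Slit2-IR against 120, 20.9 and 51.1 FPKM in C57-IR hearts, so its direction turned. AC158630.2, a long noncoding RNA gene, was at 8.35, 8.38 and 7.96 against 1.48, 2.05 and 1.22 FPKM without ischemia. AC153912.2, an antisense gene at Echdc1, was at 1.06, 1.24 and 1.45 against 0.114, 0.0537 and 0.0447 FPKM, and 11.9% of its stretches occur in Echdc1, where reads cannot be told apart without strand. Echdc1 was also higher (1.47, 1.44 and 1.21 against 0.769, 1.04 and 1.05 FPKM).

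Of the 12 with the largest negative log2 fold changes, 3 (Gm7846, Cd59b and Prps2) were called again after reperfusion. Ang, which encodes the ribonuclease angiogenin, was at 3.32, 4.003 and 3.99 FPKM in C57-non-IR hearts and at 1.59, 2.66 and 0.683 FPKM in Slit2-non-IR hearts. Rapgef3, the exchange factor EPAC1 that answers to cyclic AMP, was at 10.9, 6.65 and 5.98 against 3.88, 3.45 and 3.97 FPKM. Map3k6, a kinase of the stress-activated cascade, was at 8.09, 10.6 and 8.96 against 2.92, 5.92 and 6.13 FPKM, and Rtn4rl2, a receptor of the Nogo receptor family, was at 6.90, 5.63 and 4.91 against 2.24, 3.40 and 3.86 FPKM. An unannotated transcript on chromosome 11 (11:31545746-31549654) had 201, 142 and 56 reads in C57-non-IR and 1, 0 and 0 reads in Slit2-non-IR libraries, and 239, 64 and 1 reads in Slit2-IR libraries. None of these genes passed after adjustment.

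The gene lists covered the main cell types and functions of the heart, and only Vwc2 among their members passed after adjustment. Lists and members were chosen with earlier results of these data known, and several members are genes that the paper called in this comparison. List medians and shares of called members are therefore not independent of these data. Endothelial identity genes were lower as a group in Slit2-non-IR hearts, with 42 of 46 tested members below 0 and a median log2 fold change of −0.25. At an unadjusted p under 0.05, 4 members were lower and 0 higher, against 1.77% and 1.42% of all genes. The paper had called all 4 of these members in the same comparison. They were Tmem88, an inhibitor of Wnt signalling; Gja4, the arterial gap junction protein connexin 37; Notch4, a NOTCH receptor of endothelium; and Sh2d3c, an adaptor protein. Notch4 was at 11.3, 9.77 and 9.30 FPKM in C57-non-IR against 5.23, 5.88 and 8.65 FPKM in Slit2-non-IR hearts, and Gja4 at 12.8, 12.8 and 11.3 against 9.55, 7.69 and 11.04 FPKM. Of 9 defining endothelial markers, 8 lay below 0 and 0 were called in limma at an adjusted or unadjusted p under 0.05, with a median of −0.20, and all 9 overlapped between the groups. The count of 4 rested on single libraries: it was 10 without C57-non-IR replicate 3 or without Slit2-non-IR replicate 3, 2 when replicate 1 of either group or C57-non-IR replicate 2 was left out, and 1 without Slit2-non-IR replicate 2, while the median stayed between −0.36 and −0.20.

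Endothelial fatty acid transport genes had a median log2 fold change of −0.35, with 17 of 20 members below 0 and 4 lower at an unadjusted p under 0.05 (1.77% of all tested genes were lower). The count was 2 without C57-non-IR replicate 1, 1 when replicate 2 of either group or Slit2-non-IR replicate 1 was left out, and 2 with scaling by nuclear reads. Members such as Tcf15, Cd300lg, Aqp7 and Btnl9 are among the genes that the paper called in this comparison. Neither the count nor the median is therefore independent of these data. Tcf15, a transcription factor that drives fatty acid uptake in cardiac endothelium with MEOX2, was at 117, 81.0 and 77.1 FPKM in C57-non-IR and at 51.7, 49.6 and 59.2 FPKM in Slit2-non-IR hearts, without overlap (log2 fold change −0.74, SE 0.18). After reperfusion the Tcf15 groups overlapped, at 48.4, 46.8 and 35.0 against 39.2, 50.01 and 50.7 FPKM. Cd300lg, a receptor of capillary endothelium, was at 51.8, 58.3 and 54.2 against 31.6, 40.8 and 49.9 FPKM, Aqp7, the aquaglyceroporin, at 15.3, 13.1 and 12.7 against 8.74, 10.8 and 11.8 FPKM, and Btnl9 at 14.5, 14.7 and 10.8 against 10.5, 9.45 and 9.88 FPKM.

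Smooth muscle and pericyte genes had a median of −0.31, with 19 of 20 members below 0, 2 called lower (1.77% of all tested genes) and 10 lower without overlap (4.57%). Leaving out any C57-non-IR library or Slit2-non-IR replicate 2 left 1 called, leaving out Slit2-non-IR replicate 1 gave 5, and scaling by nuclear reads gave 1. Acta2 and Kcnmb1, like other members of this list, are among the genes that the paper called in this comparison. Its counts and median are therefore not independent of these data. Acta2, smooth muscle actin, was at 83.4, 69.1 and 74.4 against 73.2, 46.2 and 35.3 FPKM, and Kcnmb1, the beta subunit of the large-conductance potassium channel of smooth muscle, was at 0.841, 0.608 and 0.827 against 0.495, 0.259 and 0.292 FPKM. In whole tissue, fewer cells of a type and less RNA per cell cannot be told apart. Summed over 9 endothelial markers, the level was 275 to 331 FPKM in C57-non-IR hearts and 204 to 290 FPKM in Slit2-non-IR hearts, with Slit2-non-IR replicate 1 the lowest. Summed over 5 smooth muscle markers it was 131 to 143 against 69.3 to 134 FPKM, and over 9 cardiomyocyte markers 15700 to 22743 against 14897 to 19288 FPKM; none of the markers of these 3 cell types was at 0.

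With replicate 1 left out of all 4 groups, the median of the endothelial identity genes was −0.10 with 0 members called, that of the fatty acid transport genes −0.22 with 2 called lower, and that of the smooth muscle and pericyte genes −0.34 with 7 called lower. After reperfusion the 3 medians were 0.01, −0.07 and −0.09, and the difference between the conditions was not tested for the lists. Marker sums of macrophages were also lower in replicate 1 than in replicates 2 and 3 of every group.

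Cardiac ion channel and calcium handling genes had a median log2 fold change of 0.15, with 37 of 44 members above 0, against 48.9% of all tested genes, and 4 were called higher at an unadjusted p under 0.05 (1.42% of all tested genes). The 9 cardiomyocyte markers had a median of −0.15 with 5 below 0 and 0 called in limma, adjusted or not. The marker median ran from −0.20 to 0.023 when 1 library was left out, so its sign rested on single libraries. Gja1, which encodes connexin 43, the gap junction protein of ventricular myocytes, was at 19.9, 19.0 and 23.6 FPKM in C57-non-IR and at 32.6, 34.2 and 23.5 FPKM in Slit2-non-IR hearts, with overlap by 1 library. Camk2a, a calcium and calmodulin dependent kinase, was at 4.58, 6.08 and 6.01 against 9.51, 6.55 and 7.96 FPKM and was called after reperfusion too. Kcnv2 was at 2.30, 1.88 and 2.49 against 2.89, 4.32 and 2.58 FPKM, and Scn3b, a sodium channel subunit, at 0.108, 0.127 and 0.159 against 0.221, 0.310 and 0.239 FPKM. With replicate 1 left out of all groups the median was 0.05, and 0 members were called higher and 1 lower, and without C57-non-IR replicate 1 alone 0 were called.

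Cardiac transcription factors had a median of 0.17, with 17 of 24 above 0 and 8 higher without overlap (4.63% of all tested genes). With replicate 1 left out of all groups, the median was 0.086 and 0 were called in limma, and without Slit2-non-IR replicate 1 alone it was 0.091. Tbx20, a T-box factor of working myocardium, was at 4.595, 5.24 and 6.41 against 7.64, 7.45 and 6.51 FPKM, whereas Tbx2, a T-box repressor, was lower at 6.14, 6.02 and 5.31 against 4.21, 3.60 and 5.27 FPKM. These were the only 2 of the 24 that were called, where 1.42% of all tested genes were higher and 1.77% lower. Sarcomere and cytoskeleton genes had a median of 0.12, with 28 of 38 above 0 and 1 called higher, Lama2, the laminin chain around muscle fibres, at 4.77, 7.26 and 6.39 against 7.77, 7.55 and 8.18 FPKM. Of 16 genes for myofilament kinases and phosphatases, 0 were called, with a median of 0.07.

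Of 31 genes of PPAR-alpha targets and fatty acid oxidation, 4 were higher and 1 lower at an unadjusted p under 0.05 (1.42% and 1.77% of all tested genes), with a median of 0.05. The split did not hold with replicate 1 left out of all groups, where 1 was higher and 3 lower with a median of 0.0059, and without Slit2-non-IR replicate 2 the median was −0.014. Ppargc1b, a coactivator of mitochondrial genes, was at 3.41, 4.64 and 4.43 against 8.18, 4.88 and 6.53 FPKM, Acadsb, an acyl-CoA dehydrogenase, at 18.5, 20.7 and 22.3 against 26.2, 26.3 and 22.7 FPKM, and Abcd2, a peroxisomal transporter, at 0.860, 1.35 and 1.19 against 1.61, 2.35 and 1.76 FPKM. Ucp2, the mitochondrial carrier, was lower at 8.87, 13.99 and 11.5 against 5.87, 8.16 and 8.40 FPKM. Of 32 genes of glucose, glycogen and pyruvate metabolism 1 was higher and 2 were lower: Pcx, pyruvate carboxylase, was at 8.84, 8.63 and 8.05 against 12.5, 11.2 and 9.92 FPKM, and Ppp1r3e, a glycogen-targeting phosphatase subunit, was at 1.15, 1.33 and 1.31 against 1.11, 0.536 and 0.236 FPKM. Pck2, the mitochondrial PEP carboxykinase, was at 4.94, 5.50 and 4.40 against 3.83, 3.23 and 4.33 FPKM.

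In the list for insulin, AKT and growth factor signalling, 4 of 31 genes were higher and 1 lower (1.42% and 1.77% of all tested genes), with a median of 0.10. Without C57-non-IR replicate 1, 1 was higher and 0 lower, and without Slit2-non-IR replicate 2, 2 and 0. Irs1, the adaptor of the insulin receptor, was at 0.706, 1.33 and 1.04 FPKM in C57-non-IR and at 1.41, 3.16 and 1.52 FPKM in Slit2-non-IR hearts. Il6st, the receptor subunit gp130, was at 12.9, 16.5 and 16.4 against 19.0, 18.2 and 20.6 FPKM. Pdgfb, the growth factor by which endothelium recruits pericytes, was lower at 34.8, 29.9 and 28.7 against 23.4, 21.3 and 22.9 FPKM. The groups did not overlap for these 3 genes. Of 26 antioxidant and selenoprotein genes, 2 were higher, Gclm of glutathione synthesis and Aldh3a1, and both overlapped.

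Of 39 inflammation genes 0 were higher and 4 lower at an unadjusted p under 0.05 (1.77% of all tested genes were lower), while the median was 0.04 and 26 members lay above 0. When replicate 1 of either group or Slit2-non-IR replicate 2 was left out, 2 were lower, and the median ran from −0.035 to 0.22 when 1 library was left out. The 4 were Hmgb1; Sema7a, a membrane semaphorin, at 26.0, 34.0 and 26.5 against 14.6, 15.7 and 27.8 FPKM; Il17d; and Il20rb. Of 39 interferon response genes, 2 (Apobec3 and Ifi208) were lower and 30 lay below 0, with a median of −0.11. This direction was lost with replicate 1 left out of all groups, where the median was 0.0083 and 21 of 39 lay above 0, and without Slit2-non-IR replicate 1 alone the median was −0.0086. Collagen and matrix genes had 1 of 32 called, Vwc2, and a median of 0.03, where 3.19% of all tested genes were called. After reperfusion that median was 0.25, with 29 of 32 above 0 and 4 called higher. Of all tested genes, 3.16% were called there in either direction. The paper had called Vwc2 without ischemia, and members such as Col1a1, Col5a1 and Col15a1 as higher after reperfusion. The counts and medians of this list are therefore not independent of these data.

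**Figure D5:**
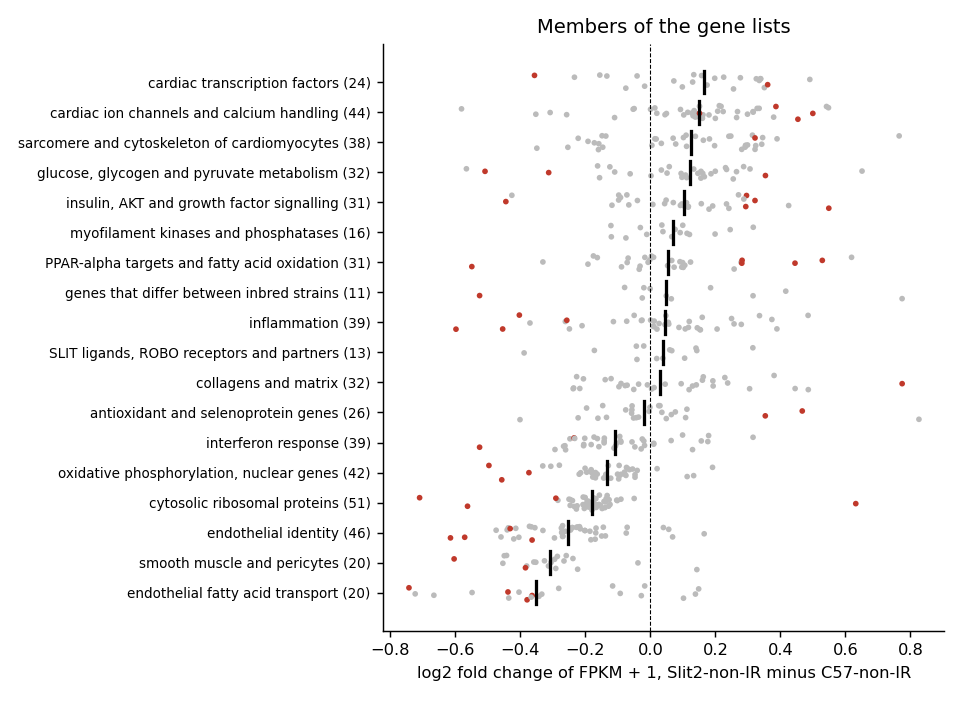
Log2 fold change of every tested member of the 18 gene lists (1 point per gene, number of members in parentheses), as Slit2-non-IR minus C57-non-IR, with the list's median as a black bar and the median of all tested genes as a dashed line. Red points had an unadjusted p under 0.05, and medians ran from −0.35 for endothelial fatty acid transport to 0.17 for cardiac transcription factors.

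Of 51 ribosomal protein genes, 50 lay below 0, with a median log2 fold change of −0.18 and a range from −0.71 for Rpl3 to 0.63 for Rpl22l1. Called at an unadjusted p under 0.05 were Rpl41, Rps27l and Rpl3 (lower) and Rpl22l1 (higher), where 1.77% of all tested genes were lower and 1.42% higher. Of the 50-base stretches of Rpl3-ps1, 91.4% occur in Rpl3, and of those of Gm10076, 69.9% occur in Rpl41. Both copies were higher in Slit2-non-IR hearts, so the values of Rpl3 and Rpl41 are uncertain. Rpl41 was at 394, 265 and 270 FPKM in C57-non-IR and 170, 208 and 246 FPKM in Slit2-non-IR hearts, and Rpl22l1, a paralog of Rpl22, at 9.71, 8.04 and 8.42 against 13.5, 21.8 and 9.28 FPKM. Nuclear genes of oxidative phosphorylation were below 0 in 38 of 42 cases, with a median of −0.13, and 3 were called lower (1.77% of all tested genes). These were the assembly factors Ndufaf1 and Ndufaf2 and the mitochondrial ribosomal protein gene Aurkaip1, at 55.8, 41.6 and 42.8 against 27.3, 35.9 and 35.1 FPKM. All 3 are among the genes that the paper called in this comparison, and no listed subunit gene was called. Reads of mitochondrially encoded genes made up 23.9% to 25.3% of a C57-non-IR library and 21.96% to 23.3% of a Slit2-non-IR library, without overlap.

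Gene length moved with these differences. Among genes with a mean over 1 FPKM, sorted into 5 classes of increasing length, the median log2 fold change was −0.087, −0.036, −0.0043, 0.019 and 0.050, so the shortest genes were lower and the longest higher in Slit2-non-IR hearts. Each library's own difference between its longest and shortest class was −0.159, 0.00405 and −0.0400 in C57-non-IR and 0.116, 0.0139 and 0.0536 in Slit2-non-IR hearts on the log2 scale, without overlap. Ribosomal protein genes, with a median length of 1830 bases, and oxidative phosphorylation genes, at 1959 bases, belong to the short end, and sarcomere genes, at 5928 bases, to the long one. With the trend on length removed, the medians were −0.13 for ribosomal protein genes, −0.09 for oxidative phosphorylation, 0.10 for the sarcomere, 0.12 for ion channels, −0.26 for endothelial identity and −0.32 for smooth muscle and pericytes. With replicate 1 left out of all groups, the ribosomal and oxidative phosphorylation medians were −0.03 and −0.02.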

How the data were processed

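Total RNA of 12 hearts (TRIzol, NEBNext Ultra library kit, paired-end Illumina HiSeq) had been mapped by the authors, whose processing notes name HISAT2 and mm10. The authors deposited 1 FPKM value for each gene in each library; the counting tool, annotation release and use of strand are not given in the sources used here. Multiplied by gene length, 100% of FPKM values were whole multiples of a library-specific unit (tolerance 0.1 read), so reads were recovered for depth and for an added voom fit. Genotype came from the labels, and IR or non-IR from the title letters. A gene was tested if 3 or more libraries reached 10 reads, scaled to the median size factor, and all libraries together held 15.

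The main test was limma (3.58.1, R 4.3.3) with a variance trend on log2(FPKM + 1), which understates changes of low genes, fitting 4 groups over 12 libraries without covariates. Named genes were the SLIT and ROBO list, genes at an adjusted p under 0.05, the 12 largest rises and falls, genes called in both genotype comparisons and called list members. Members and lists were chosen with earlier results of these data known. Copies were searched by shared 50-base stretches in GRCm38 transcripts, with 101 of 104 genes matched. The fit was tested on simulated data. The authors' per-library columns were all used (0 left out), with Python 3.11.15 and pandas 2.3.3. Some results are not reported here.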

Additional observations from a re-analysis of the deposited data

How the results depend on the processing

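Of the 143 named genes past a threshold, 143 kept their direction under every alternative run and 55 kept every call. The 6 genes at an adjusted p under 0.05 became 10 with a pseudocount of 0.1, 11 without a filter, 3 with at least 10 reads in every library, 2 with limma-voom on the 6 libraries compared and 0 without replicate 1 in all 4 groups (both chosen after seeing the data), and 1 to 14 when 1 library was left out; Vwc2 lost its call in 2 of 24 alternatives, the others in 9 to 13. Same-numbered libraries of both groups correlated at 0.339, 0.0573 and 0.114 in their deviations, and since 1 of the 3 was under 0.1 the numbers were not taken to pair them. With the replicate block, 2 genes passed after adjustment and 422 were lower before it, and with a replicate block of replicate 1 against 2 and 3, 433. The replicate block gave 7 lower calls for endothelial identity, 9 for endothelial fatty acid transport and 6 for smooth muscle and pericytes. Without a filter, 1016 genes were called before adjustment (488 higher, 528 lower) among 28242; leaving out 1 library gave 387 to 583 (173 to 256 higher, 214 to 356 lower).

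After reperfusion, the 7 adjusted calls became 3 with at least 10 reads in every library, 4 in a fit of 6 libraries and without replicate 1, and 4 to 12 with 1 library left out; unadjusted calls were 928 without a filter, 739 without replicate 1 and 315 to 795 with 1 library left out. The interaction passed for 4 genes without a filter, 2 without replicate 1 and 0 to 1 with 1 library left out. Genes called in both comparisons numbered 57 with at least 10 reads in every library and 67 to 107 with 1 library left out. The difference between the longest and shortest genes, 0.137, was 0.0107 with the trend removed, which follows from the construction, 0.0558 without replicate 1 and 0.0801 to 0.171 with 1 library left out.

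Direction turned for 6 uncalled SLIT and ROBO genes, and the cause was not tested. Without replicate 1 in all groups, Dag1 was at −0.021, Unc5b at 0.15 and Slit3 at −0.063. With the length trend removed, Srgap1 was at −0.027 and Robo2 at −0.034. With 1 library left out, Unc5b ranged from −0.17 to 0.13 (0.06 in another), Slit3 from −0.014 to 0.25, Sdc1 from −0.12 to 0.071 (0.04 in another) and Srgap1 from −0.046 to 0.073 (−0.01 in another).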
